A study of Mus musculus with 8 samples.

Results

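Liver of Rag1-Tbet DKO mice on a high-fat diet (HFD) was compared with and without ischemia-reperfusion injury (IRI), over the baseline of the same diet and genotype. The comparison rests on 2 of the 8 pools of the study, HFD Rag1-Tbet DKO IRI against HFD Rag1-Tbet DKO non-IRI, and covers all 84 cytokine and chemokine genes of a quantitative PCR array together with its 5 housekeeping genes. The 8 pools cover Rag1-Tbet DKO mice and *Rag1-/-* mice, whose T and B cells are missing, each on a normal diet (ND) or the HFD and each with or without IRI. Rag1-Tbet DKO mice carry deletions of both *Rag1* and *Tbx21*, so that they lack T cells, B cells and the ILC1s that depend on T-bet, and keep NK cells that express Eomes. Both pools share these deletions, which were present from birth in all cells, and the HFD, a lard-based diet given for 12 to 15 weeks. The IRI livers were clamped in part for 45 minutes while warm and then reperfused for 24 hours, and the control mice had a laparotomy at tissue collection and no clip. The age of the mice and the number of livers in each pool are not given in the labels beyond a minimum of 3 livers. Neither *Rag1* nor *Tbx21* is on the array, so the genotype could not be checked.

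RNA had been pooled before cDNA synthesis and each gene was read in 1 well of each pool. Each value below is therefore a difference between 2 pools with no replicate error, and it carries no test. The measured quantity is the threshold cycle (Ct), when fluorescence of the product first crosses a set level, so each cycle less stands for roughly 2 times the transcript. The log2 fold is the negative ΔΔCt against the 3 references *Actb*, *Gapdh* and *Hsp90ab1*, whose Ct values were averaged. That mean was 15.29 without IRI and 15.56 after IRI. No Ct exceeded 35, so the fold of a gene at 35 in the baseline pool is a lower limit ("at least"), and none is given where both pools were at 35. Tissue came from the left lobe of injured livers but from the entire liver of controls, per the methods, and this difference cannot be told apart from IRI in these pools. In bulk liver, a change in the number of cells of a type and a change in RNA per cell cannot be told apart either.

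When blood flow returns to an ischemic liver, dying hepatocytes and activated Kupffer cells release signals that make resident cells secrete chemokines. CXC chemokines that bind CXCR2 draw in neutrophils, CC chemokines that bind CCR2 draw in monocytes, and the interferon-induced ligands of CXCR3 draw in NK cells and T cells. ILC1s and NK cells answer IL-12, IL-15 and IL-18 with IFN-γ, and cytokines that signal through gp130, such as IL-6, act on hepatocytes in the acute phase response and in regeneration.

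After IRI, 44 of the 77 array genes with a fold or a bound (57.1%) were at least 2-fold higher and 4 (5.19%) were at least 2-fold lower. The CXCR2 ligand *Cxcl3*, the gp130 cytokine *Il11* and the CCR2 ligand *Ccl7* had the highest log2 folds of the array, and the IL-12 subunit *Il12b* had the lowest. Of the 44 higher genes, 34 were at least 4-fold and 19 at least 8-fold higher. The median log2 fold of the array genes was 1.29, and 62 genes lay above 0 and 15 below. The 5 housekeeping genes lay between -0.22 (*Gapdh*) and 0.16 (*Actb*) on the log2 scale, and the standard deviation of the 3 references was 0.20. These are abundant genes, and their spread does not show how far a gene at a late Ct would move between wells. Of the called genes, 27 of the higher and 2 of the lower had a Ct of 30 or less in both pools.

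Another reference adds 1 constant to every log2 fold. With *Nodal*, *Il9* and *Csf1*, the references that the methods name for this genotype and which are themselves array genes, every log2 fold was lower by 0.80, and 34 genes were higher and 12 lower. With the authors' deposited normalized values the counts were 34 and 15. With the median Ct over array genes detected in every pool (the array median), a reference that removes any change most genes share, every log2 fold was lower by 1.42 and the counts were 28 and 24. A log2 fold above 1.42 therefore kept its sign under each reference tried, and 25 genes, 7 of them called, turned below 0 against the array median. With *Nodal*, *Il9* and *Csf1*, 10 of the 44 higher genes were no longer 2-fold higher (*Ccl22*, *Ccl24*, *Csf1*, *Fasl*, *Il1b*, *Il17f*, *Il23a*, *Il27*, *Tnfsf13b* and *Xcl1*). The 12 lower genes with these references were the 4 called lower above and *Bmp2*, *Bmp4*, *Cxcl11*, *Il15*, *Il16*, *Il18*, *Mif* and *Tgfb2*.

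**Figure D1:**
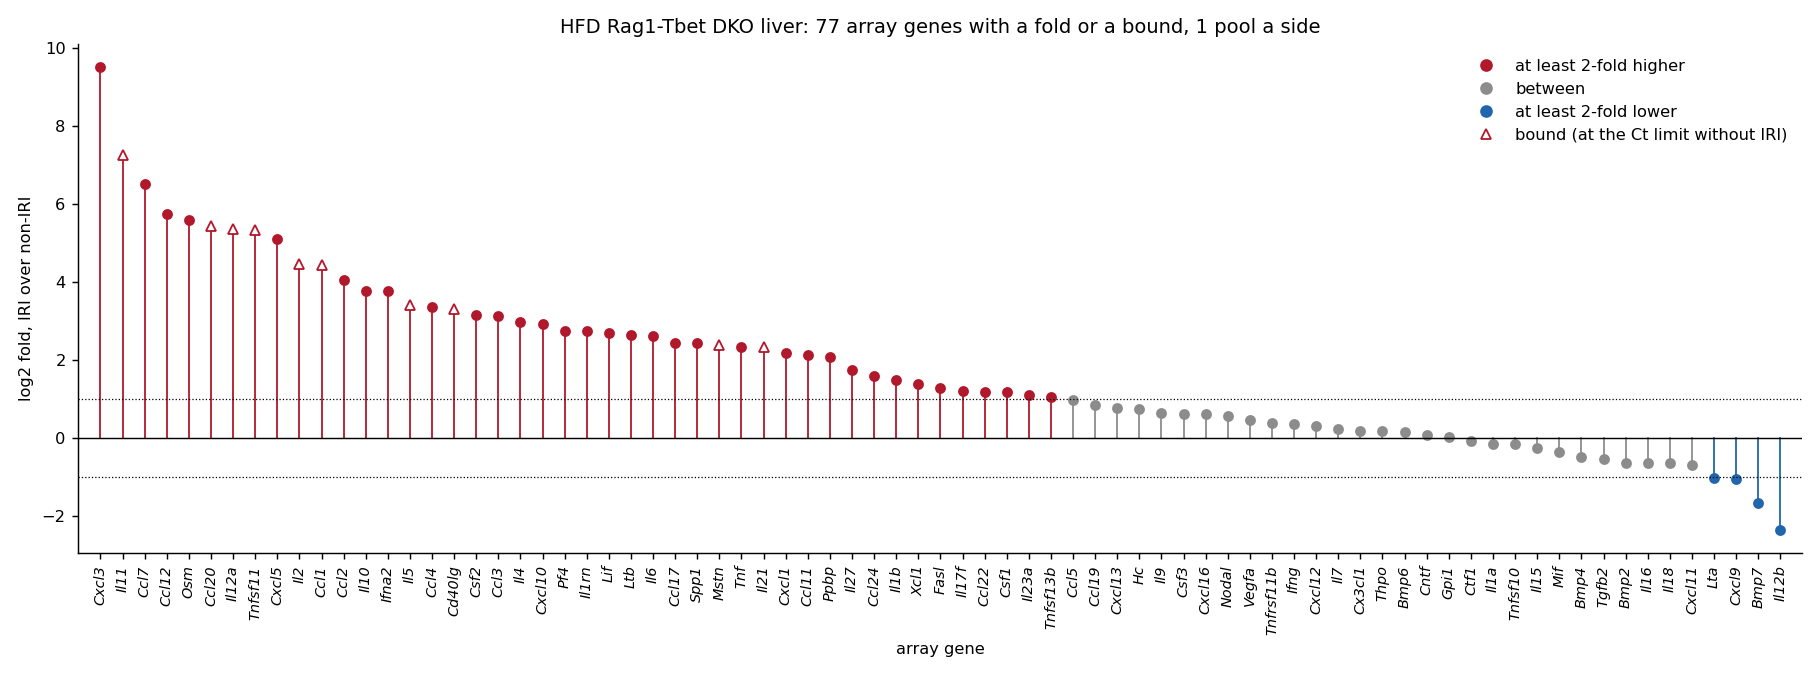
Log2 fold after IRI of the 77 array genes with a fold or a bound in HFD Rag1-Tbet DKO liver, in order of size, with circles for measured folds, open triangles for lower bounds and dotted lines at 2-fold. The 44 higher genes run from *Tnfsf13b* at 1.05 to *Cxcl3* at 9.52, and the 4 lower genes from *Lta* at -1.01 to *Il12b* at -2.34.

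Without IRI, 17 genes were at the limit of detection in HFD Rag1-Tbet DKO liver. After IRI, 10 of these were measured, at a Ct between 28.01 (*Il11*) and 32.94 (*Il21*), and 7 were still at the limit. No gene was at the limit after IRI alone. The 7 genes with no fold were *Adipoq*, *Cd70*, *Il3*, *Il13*, *Il17a*, *Il22* and *Il24*. Of the 10 genes that came below the limit, 7 were below it without IRI in ND Rag1-Tbet DKO liver and 7 in HFD *Rag1-/-* non-IRI liver. These were not the same 7 genes, and 5 (*Ccl20*, *Il2*, *Il5*, *Il11* and *Tnfsf11*) were below the limit in both.

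**Figure D2:**
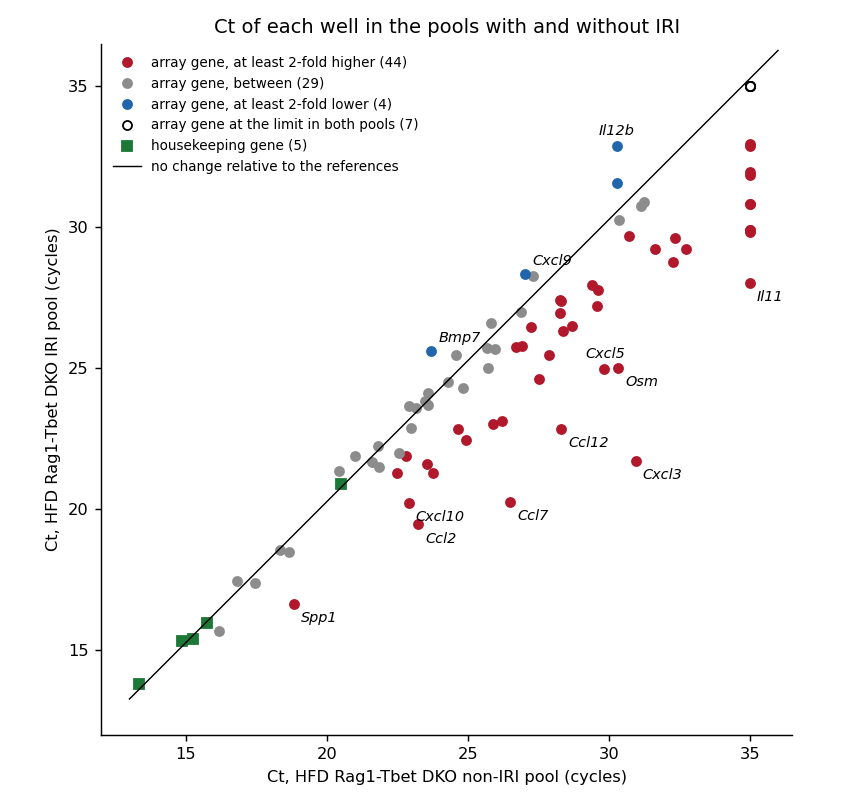
Ct of each of the 89 wells in the HFD Rag1-Tbet DKO non-IRI pool (x axis, cycles) against the IRI pool (y axis, cycles), where the line marks no change relative to the 3 reference genes. Points below the line were higher after IRI, the points at a Ct of 35 on the x axis have only a bound, and the 5 housekeeping genes lie along the line.

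The liver label was read against 2 hepatocyte products. *Hc*, the gene of complement C5, had a Ct of 16.17 without IRI and 15.68 after IRI (log2 fold 0.76), and *Thpo*, the gene of thrombopoietin, had a Ct of 21.59 and 21.68 (0.18). Both were measured in both pools and neither passed 2-fold. Stromal and sinusoidal endothelial genes, of which there were 4 (*Cxcl12*, *Bmp6*, *Bmp4* and *Bmp2*), were also within 2-fold, with a median log2 fold of -0.16. The platelet genes *Pf4* and *Ppbp* were both higher, and the part of blood cells retained in the tissue in these results was not tested.

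Of the 4 neutrophil attractants and their growth factor, 3 were higher after IRI, against 57.1% of all genes. *Cxcl3*, a CXCR2 ligand, had a Ct of 30.95 without IRI and 21.70 after IRI, a 734-fold higher level. *Cxcl5*, another CXCR2 ligand, moved from 29.82 to 24.97 and was 34.8-fold higher. *Cxcl1*, the third CXCR2 ligand of this group, moved from 23.54 to 21.62 and was 4.56-fold higher. The injured pool was thus the higher one for each CXCR2 ligand in this group, and the one with the earliest Ct at baseline had the smallest fold. *Csf3*, the gene of G-CSF, which drives neutrophil production, was at 31.13 and 30.77 and did not pass 2-fold (1.55-fold higher). The median log2 fold of the group was 3.66 against 1.29 for all genes, and it was still above 1 against the array median.

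*Cxcl3* and *Cxcl1* lie near each other on chromosome 5, and the bases before their starts are shown because both genes were higher and share a sequence there. They are the 250 bases before the start of transcription, on the strand of the gene, from RefSeq on GRCm38.p6, with matches to the NF-κB consensus in capitals.
Cxcl3 (chr5:90785851-90786100, plus strand): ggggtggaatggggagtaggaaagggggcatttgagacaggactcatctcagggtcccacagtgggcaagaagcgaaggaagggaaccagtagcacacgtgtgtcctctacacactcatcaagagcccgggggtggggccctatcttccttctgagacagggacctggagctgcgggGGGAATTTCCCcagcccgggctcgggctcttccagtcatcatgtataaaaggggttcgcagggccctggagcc
Cxcl1 (chr5:90890995-90891244, plus strand): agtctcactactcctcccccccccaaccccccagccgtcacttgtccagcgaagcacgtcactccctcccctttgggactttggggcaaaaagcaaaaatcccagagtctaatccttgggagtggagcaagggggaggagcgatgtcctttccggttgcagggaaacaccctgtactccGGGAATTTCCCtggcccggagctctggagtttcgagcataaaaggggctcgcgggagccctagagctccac
The same run, GGGAATTTCCC, ends 63 bases before the start of *Cxcl3* and 61 before that of *Cxcl1*. The consensus was searched on both strands, with overlapping matches counted once, and 7.25% of all 32851 promoters of the table held a match in these 250 bases. Among the array genes with a promoter in the table, 9 of the 33 higher genes held one (*Ccl1*, *Ccl20*, *Csf1*, *Cxcl1*, *Cxcl10*, *Cxcl3*, *Il6*, *Lif* and *Ltb*), as did 2 of the 24 other genes with a fold (*Il16* and *Vegfa*). A match is a description of the letters and not a binding site.

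The CCR2 ligands, which attract monocytes, were also higher. *Ccl7* moved from a Ct of 26.51 without IRI to 20.25 after IRI and was 92.4-fold higher. *Ccl12*, a CCR2 ligand of the mouse, moved from 28.30 to 22.83 and was 53.4-fold higher. *Ccl2*, the gene of MCP-1, moved from 23.24 to 19.46 and was 16.6-fold higher. All 3 were measured well below the limit in both pools. *Csf1*, the gene of the macrophage growth factor M-CSF, moved from 22.82 to 21.90 (2.28-fold higher), and its log2 fold was -0.23 against the array median. *Cx3cl1*, the gene of fractalkine, which binds CX3CR1 on monocytes, was at 26.89 and 26.98 (1.13-fold higher). The median log2 fold of these 5 genes was 4.05, the highest of the 17 role groups. Of the 5 genes, 4 were higher and 0 lower, against 57.1% and 5.19% of all genes.

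Many chemokine genes of the array lie in a cluster on chromosome 11 or chromosome 5. On chromosome 11, 8 CC chemokine genes follow each other among array genes, and 7 were higher, against 57.1% of all genes. In order, *Ccl2*, *Ccl7*, *Ccl11*, *Ccl12* and *Ccl1* had log2 folds of 4.05, 6.53, 2.13, 5.74 and at least 4.45, and *Ccl5*, *Ccl3* and *Ccl4* had 0.99, 3.14 and 3.37. On chromosome 5, 9 CXC chemokine genes follow each other, and 6 were higher, not far from the 57.1% of all genes. *Cxcl5*, *Ppbp*, *Pf4*, *Cxcl3* and *Cxcl1* had log2 folds of 5.12, 2.08, 2.75, 9.52 and 2.19. *Cxcl9*, *Cxcl10*, *Cxcl11* and *Cxcl13* followed with -1.05, 2.94, -0.69 and 0.78, and did not share a direction. Other higher chemokine genes, such as *Ccl20* and *Xcl1*, lie on other chromosomes.

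*Ccl3* and *Ccl4*, the genes of the inflammatory chemokines MIP-1α and MIP-1β, were both higher. *Ccl4* moved from 26.22 to 23.12 (10.3-fold higher) and *Ccl3* from 25.90 to 23.03 (8.82-fold higher). *Xcl1*, a chemokine of NK cells and ILC1s that attracts dendritic cells, moved from 26.92 to 25.80 and was 2.62-fold higher, whereas its log2 fold was -0.03 against the array median. *Ccl5*, the gene of RANTES, moved from 25.73 to 25.01 and stayed just inside the threshold (1.99-fold higher).

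Among interferons and the CXCR3 ligands, the genes went different ways. *Cxcl10*, the gene of IP-10, moved from 22.90 to 20.23 and was 7.67-fold higher. *Cxcl9*, the ligand most dependent on IFN-γ, moved from 27.03 to 28.35 and was 2.07-fold lower, which missed 2-fold with all 5 housekeeping genes (log2 -0.98) and without *Actb* (-0.97). *Cxcl11* moved from 27.30 to 28.26 and was 1.61-fold lower, below the threshold. *Cxcl10* was therefore higher in the injured pool while both other CXCR3 ligands were lower there, an order that no choice of reference alters. *Ifng*, the gene of IFN-γ, was at 30.35 and 30.26 (1.28-fold higher, and a log2 fold of -0.44 with *Nodal*, *Il9* and *Csf1* as references). *Ifna2*, a type I interferon, moved from 32.74 to 29.24 and was 13.6-fold higher.

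The bases before the starts of *Cxcl10* and *Cxcl9* are shown because these neighbours differed in direction. Capitals mark matches to the NF-κB consensus and to GAAA, any 2 bases and GAAA, the core of the interferon-stimulated response element (ISRE), searched on both strands.
Cxcl10 (chr5:92348890-92349139, minus strand): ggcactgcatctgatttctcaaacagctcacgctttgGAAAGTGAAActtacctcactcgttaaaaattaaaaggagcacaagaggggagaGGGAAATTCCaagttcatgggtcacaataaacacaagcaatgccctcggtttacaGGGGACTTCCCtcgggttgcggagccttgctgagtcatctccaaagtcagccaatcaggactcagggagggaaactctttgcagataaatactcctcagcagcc
Cxcl9 (chr5:92328080-92328329, minus strand): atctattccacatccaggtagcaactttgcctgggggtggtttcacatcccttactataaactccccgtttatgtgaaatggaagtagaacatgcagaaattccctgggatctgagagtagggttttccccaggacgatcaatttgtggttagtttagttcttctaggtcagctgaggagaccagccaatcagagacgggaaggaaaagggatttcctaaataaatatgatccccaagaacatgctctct
*Cxcl10* held both motifs in this window. The ISRE match, GAAAGTGAAA, began 213 bases before its start. Neither motif was found in the *Cxcl9* window, which says only that these letters are not there. The ISRE core was found in 2.98% of all promoters of the table, in 5 of the 33 higher genes (*Cxcl10*, *Ifna2*, *Il4*, *Spp1* and *Tnfsf13b*) and in 2 of the 24 others (*Ccl19* and *Vegfa*). The same windows were searched for the STAT motif, TTC, any 3 bases and GAA, which 7.02% of all promoters, 2 of the 33 and 2 of the 24 held. The AP-1 motif, TGA, any base and TCA, was in 6.75% of all promoters, in 8 of the 33 and in 4 of the 24.

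Of 7 genes that interferons induce, 3 were higher and 1 was lower, against 57.1% and 5.19% of all genes. Their median log2 fold was -0.14 against 1.29 for all genes. Besides the CXCR3 ligands these are *Tnfsf10*, *Tnfsf13b*, *Il15* and *Il27*. *Il27*, which encodes the p28 subunit of IL-27, moved from 29.42 to 27.95 and was 3.34-fold higher. *Tnfsf13b*, the gene of the B cell survival factor BAFF, moved from 27.25 to 26.47 and was 2.07-fold higher, with a log2 fold of -0.37 against the array median.

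The cytokines that stimulate ILC1s and NK cells were split as well. *Il12b*, which encodes the p40 subunit of IL-12 and IL-23, moved from a Ct of 30.28 without IRI to 32.89 after IRI and was 5.06-fold lower. Its partner *Il12a*, the p35 subunit of IL-12, was at the limit without IRI and at 29.89 after it, at least 41.6-fold higher. The subunits of IL-12 thus moved in opposite directions between these pools, each read at a late Ct in 1 well. *Il23a*, the p19 subunit of IL-23, moved from 28.26 to 27.41 (2.17-fold higher, and a log2 fold of -0.30 against the array median). *Il15* was at 23.60 and 24.13 (1.20-fold lower). *Il18*, a partner of IL-12 in the induction of IFN-γ, was at 20.44 and 21.35 (1.56-fold lower). With *Nodal*, *Il9* and *Csf1* as references, *Il15* and *Il18* were both at least 2-fold lower. The median log2 fold of these 6 genes was 0.43, and it turned to -0.99 against the array median.

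Among the 10 genes whose products ILC1s and NK cells make, 6 were higher (*Ccl3*, *Ccl4*, *Csf2*, *Fasl*, *Tnf* and *Xcl1*) and 1 was lower (*Lta*). The share of higher genes was close to the 57.1% of all genes. The median log2 fold of these products was 1.34, close to that of all genes, and -0.08 against the array median. *Tnf* moved from 28.38 to 26.31 and was 5.06-fold higher. *Csf2*, the gene of GM-CSF, moved from 27.51 to 24.61, a log2 fold of 3.17. Both were below a Ct of 30 in each pool, and *Csf2* is also a product of other activated leukocytes and of stromal cells. Among the death ligands, *Fasl* moved from 30.71 to 29.69 (2.45-fold higher, with a log2 fold of -0.13 against the array median) and *Tnfsf10*, the gene of TRAIL, was at 23.17 and 23.58 (1.10-fold lower). *Lta*, the gene of lymphotoxin α, moved from 30.29 to 31.57 and was 2.01-fold lower, and it missed the threshold with all 5 housekeeping genes (log2 -0.94), without *Actb* (-0.93) and without *Hsp90ab1* (-0.98).

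The 6 genes grouped as gp130 cytokines had a median log2 fold of 2.66. Of these, 4 were higher and 0 lower, against 57.1% higher and 5.19% lower among all genes. *Il27* was counted with the IL-12 family and is not among them. *Il11*, a cytokine that fibroblasts and hepatocytes under stress make, was at the limit without IRI and at 28.01 after it, at least 153-fold higher. *Osm*, the gene of oncostatin M from neutrophils and macrophages, moved from 30.34 to 25.01 and was 48.5-fold higher. The injured pool was also higher for *Lif* (31.65 to 29.23, 6.45-fold) and for *Il6* (29.57 to 27.22, 6.15-fold), the main inducer of the acute phase response. *Cntf* (1.06-fold higher) and *Ctf1*, the gene of cardiotrophin 1 (1.05-fold lower), were nearly level.

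Of the IL-1 genes, the antagonist had the highest fold. *Il1rn*, which blocks the IL-1 receptor, moved from 23.75 to 21.28 and was 6.68-fold higher, and *Il1b* moved from 22.49 to 21.27 and was 2.81-fold higher. *Il1a* was at 21.83 and 22.24 (1.10-fold lower). The antagonist thus had a higher fold than either agonist in this comparison, an order that is independent of the reference genes.

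*Tnfsf11*, the gene of RANKL, was at the limit without IRI and at 29.92 after it, at least 40.8-fold higher. This bound rests on 1 baseline well at the limit. Uninjured ND Rag1-Tbet DKO liver was also at 29.92 and uninjured HFD *Rag1-/-* liver at 30.48. Over the ND baseline the log2 fold of *Tnfsf11* was 0.70. Its decoy receptor osteoprotegerin (*Tnfrsf11b*) was at 23.00 and 22.87 (1.32-fold higher). *Spp1*, the gene of osteopontin, a matrix protein of injured bile ducts and activated macrophages, moved from 18.82 to 16.65 and was 5.43-fold higher. It was the array gene with the earliest Ct among those called higher after IRI.

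**Figure D3:**
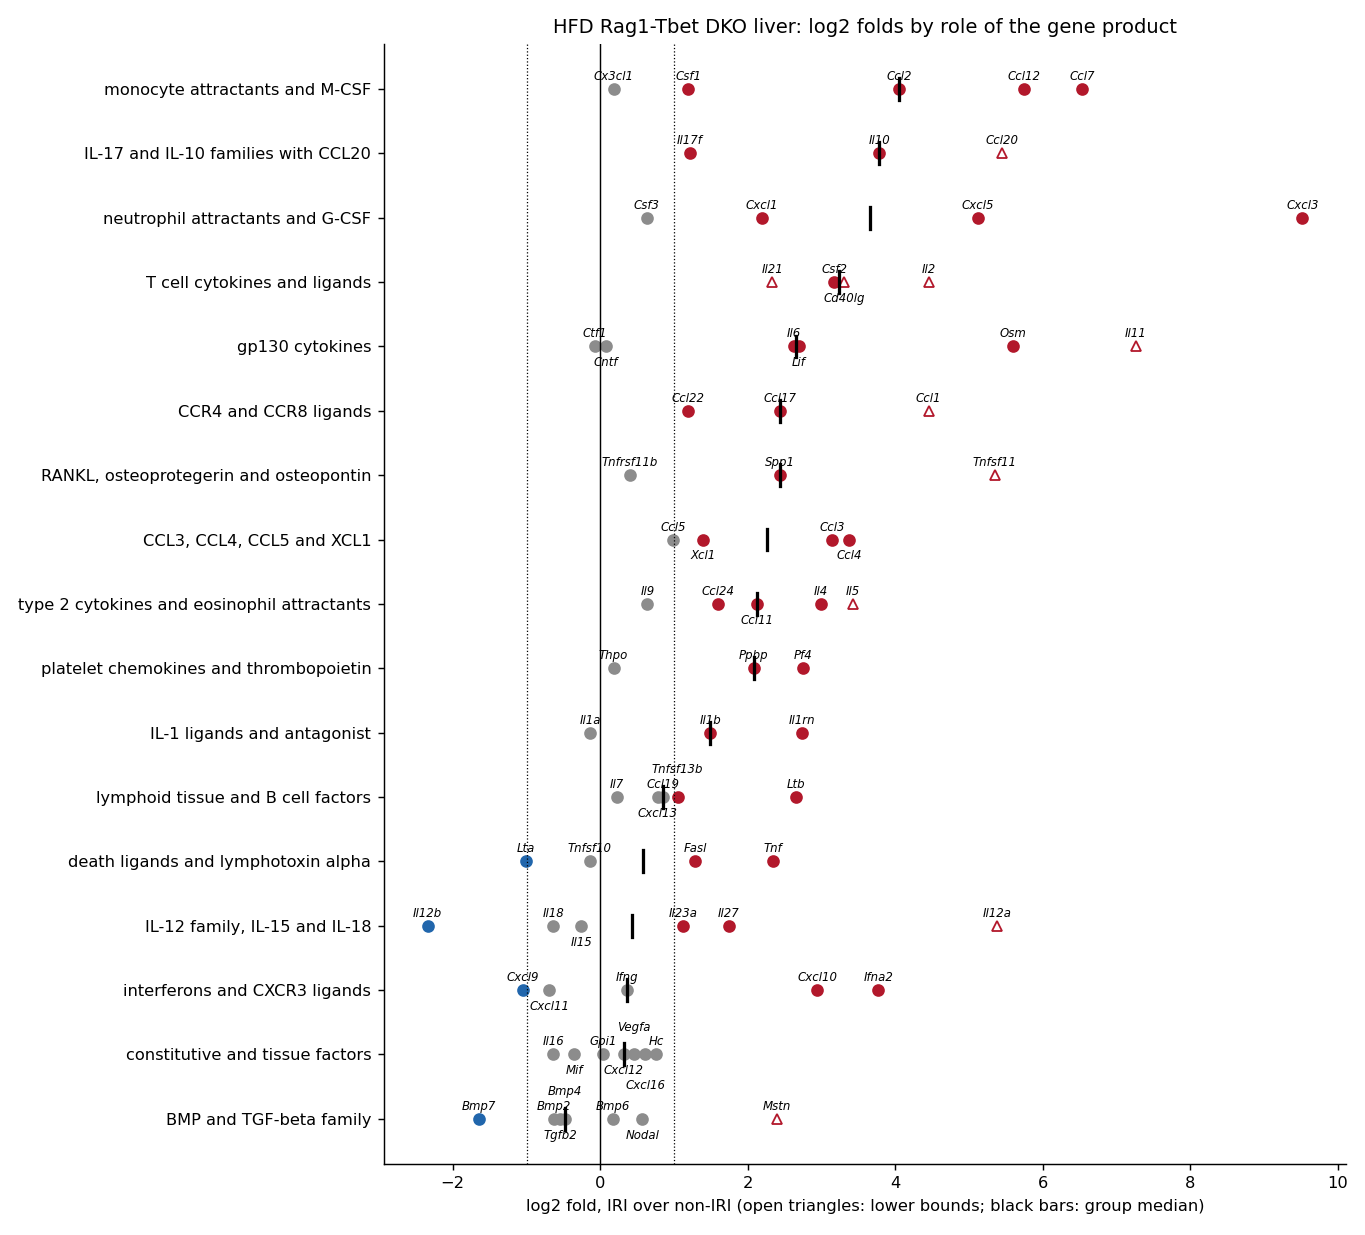
Log2 fold after IRI of each array gene (x axis) by the role of its product (rows, ordered by the group median), with red for genes at least 2-fold higher, blue for genes at least 2-fold lower, grey for the rest, open triangles for lower bounds and black bars for group medians. The monocyte attractants had the highest median, at 4.05, and the BMP and TGF-β family the lowest, at -0.48.

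Several cytokines known mainly from T cells were measured after IRI although these mice lack T cells. Of 10 such genes, 7 had a fold or a bound, and 6 of these were higher and 0 lower. Among all genes with a fold or a bound, 57.1% were higher. *Il3*, *Il13* and *Il17a* were at the limit in both pools. *Il2* was at the limit without IRI and at 30.81 after it (a log2 fold of at least 4.46), *Il5* at the limit and at 31.85 (at least 10.7-fold), *Cd40lg* at the limit and at 31.96 (at least 9.92-fold) and *Il21* at the limit and at 32.94 (at least 5.03-fold). These bounds rest on late Ct values in 1 well each. Without IRI, *Il5* was at 27.67 in ND Rag1-Tbet DKO and 29.06 in HFD *Rag1-/-* liver, both earlier than 31.85. With a limit of Ct 32, *Il21* had no fold, and the bounds of *Il5* (log2 0.42) and *Cd40lg* (0.31) no longer passed 2-fold. *Il4*, also made by eosinophils and basophils, moved from 32.33 to 29.61 and was 7.94-fold higher. *Il17f* moved from 26.71 to 25.77 (2.31-fold higher, with a log2 fold of -0.21 against the array median). *Il9* was at 31.26 and 30.89 (1.56-fold higher).

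The attractants of eosinophils *Ccl11* and *Ccl24*, genes of eotaxins that bind CCR3, were both higher. *Ccl11* moved from 29.63 to 27.77 (4.38-fold) and *Ccl24* from 28.28 to 26.96 (3.01-fold). The CCR4 ligand *Ccl17* moved from 28.68 to 26.51 (5.43-fold higher) and *Ccl22*, which binds the same receptor, from 28.32 to 27.40 (2.28-fold higher, with a log2 fold of -0.23 against the array median). *Ccl1*, the CCR8 ligand, was at the limit without IRI and at 30.82 after it, at least 21.9-fold higher. All 3 ligands of CCR4 and CCR8 were called higher, 1 of them from a bound, against 57.1% of all genes.

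*Il10*, an anti-inflammatory cytokine of macrophages, moved from 32.28 to 28.77 and was 13.7-fold higher. *Ccl20*, which binds CCR6, was at the limit and then at 29.82, at least 43.7-fold higher. Neither had been measured before a Ct of 32 in the baseline pool. Among factors of lymphoid tissue, *Ltb*, the gene of lymphotoxin β, moved from 27.87 to 25.48 (6.32-fold higher). *Ccl19*, *Cxcl13* and *Il7*, which guide or sustain lymphocytes, had log2 folds of 0.85, 0.78 and 0.23, below the threshold.

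*Pf4*, a chemokine stored in platelet granules, moved from 24.92 to 22.44 and was 6.73-fold higher. *Ppbp*, the precursor of the CXCR2 ligand NAP-2 from platelets, moved from 24.65 to 22.84 and was 4.23-fold higher. Thrombopoietin (*Thpo*), which hepatocytes make, was level as given above.

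The BMP and TGF-β family was the role group with the lowest median log2 fold (-0.48, and below 0 with each reference tried). Of its 7 genes, 1 was higher and 1 lower, against 57.1% and 5.19% of all genes. *Bmp7* moved from 23.70 to 25.62 and was 3.14-fold lower. *Bmp2* (1.55-fold lower), *Tgfb2* (1.45-fold lower) and *Bmp4* (1.39-fold lower) were lower by less than 2-fold. *Bmp6*, which endothelial cells make to control hepcidin, was at 23.59 and 23.69 (1.13-fold higher), and *Nodal* was at 25.97 and 25.67 (1.48-fold higher). *Mstn*, the gene of myostatin, was at the limit without IRI and at 32.88 after it (at least 5.24-fold higher), and had no fold with a limit of Ct 32.

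None of the constitutive and tissue factors passed 2-fold. Their log2 folds ran from -0.64 (*Il16*) to 0.76 (*Hc*). *Mif*, a cytokine stored in many cells, was at 16.82 and 17.44 (1.27-fold lower), *Vegfa*, the vascular growth factor, at 18.66 and 18.47 (1.38-fold higher), and *Cxcl12*, the stromal CXCR4 ligand, at 17.45 and 17.40 (1.25-fold higher). *Gpi1*, a glycolytic enzyme that also acts as a cytokine, was at 18.34 and 18.57 (1.03-fold higher), and *Cxcl16*, a CXCR6 ligand, at 21.84 and 21.50 (1.53-fold higher). *Adipoq*, the adiponectin gene of fat cells, was at the limit in both pools.

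The same contrast was set beside that of ND Rag1-Tbet DKO liver and that of HFD *Rag1-/-* liver, in which ILC1s are present. These comparisons share no pool with the first, and with 1 pool a side the difference between them was not tested. The ND Rag1-Tbet DKO pair had 41 higher genes of 80 (51.2%) and 6 lower ones (7.5%). The mean Ct of its 3 references moved from 14.85 without IRI to 16.42 after IRI, which raises every log2 fold of that pair. Some genes, such as *Csf2* (19.59 to 19.94) and *Xcl1* (25.32 to 25.68), were called higher there at a later Ct after IRI. Other references were tried for the HFD Rag1-Tbet DKO pair alone. The HFD *Rag1-/-* pair had 7 higher genes of 77 (9.09%) and 13 lower ones (16.9%). Without IRI, 7 genes were at the limit in HFD *Rag1-/-* liver and 17 in HFD Rag1-Tbet DKO liver, and 9 and 7 after IRI. In the same order, the array median was a Ct of 23.93 and 25.705 without IRI and 24.825 and 24.555 after IRI. The mean Ct of the references was 15.10 and 15.29 without IRI and 15.72 and 15.56 after IRI. The part of the baselines in the counts of higher genes was not tested. Some wells of ND Rag1-Tbet DKO liver stood apart. Its non-IRI pool had *Il3* at a Ct of 9.36 and *Cd40lg* at 11.44, while *Il3* was at the limit in the other 7 pools and no other pool had *Cd40lg* below 31.37. *Ccl12* was at the limit in its IRI pool and between 22.83 and 29.31 in the other 7. *Csf2* had a Ct of 19.59 and 19.94 in the ND Rag1-Tbet DKO pools and a later one in each of the other 6, and *Osm* was at the limit in the ND non-IRI pool alone.

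Of the 44 genes called higher after IRI, 35 were also higher in ND Rag1-Tbet DKO liver (79.5%, against 51.2% of all genes of that pair). These 35 made up 85.4% of the higher genes of the ND pair, against 57.1% of all genes in the main comparison. A further comparison, HFD *Rag1-/-* liver, shared 6 of the 44 (13.6%, against 9.09% of all its genes). With 7 higher genes there, no more than 7 could be shared. The 6 shared genes made up 85.7% of those 7, against the same 57.1%. They were *Ccl7*, *Csf2*, *Cxcl3*, *Il11*, *Osm* and *Spp1*, and each was higher in all 3 comparisons. *Cxcl3*, for example, was 13.9-fold higher in HFD *Rag1-/-* liver, where it moved from 30.95 to 27.77, and 1302-fold higher on the ND, where it moved from 31.63 to 22.85. Both HFD genotypes had the same Ct of *Cxcl3* without IRI, and it was earlier after IRI in the Rag1-Tbet DKO pool. *Cxcl9* was lower in all 3 comparisons, by 3.49-fold on the normal diet and by 2.25-fold in the HFD *Rag1-/-* pools.

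A further 9 of the 44 genes did not pass 2-fold upwards in either other comparison. They were *Ccl1*, *Ccl11*, *Ccl12*, *Cd40lg*, *Cxcl10*, *Il5*, *Il6*, *Il21* and *Tnfsf13b*. Of these, 3 had no fold to pass in at least 1 comparison, *Il21* in both, *Ccl1* in ND Rag1-Tbet DKO and *Cd40lg* in HFD *Rag1-/-* liver, and the ND values of *Ccl12* and *Cd40lg* rest on the wells that stood apart. On the normal diet, *Cxcl10* of Rag1-Tbet DKO liver was 1.54-fold lower (22.04 to 24.23) and 1.21-fold higher in HFD *Rag1-/-* liver (21.47 to 21.81). The ND value of *Il6* was 1.15-fold higher (26.77 to 28.13) and 1.66-fold lower in HFD *Rag1-/-* liver (27.80 to 29.15). For *Ccl12*, HFD *Rag1-/-* liver was 1.82-fold higher after IRI (25.50 to 25.26). The HFD Rag1-Tbet DKO IRI pool had the earliest Ct of the 8 pools for *Cxcl10* and *Ccl12*.

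*Ccl17*, *Ccl22*, *Ccl24*, *Ifna2*, *Il17f* and *Xcl1* were at least 2-fold higher after IRI on this background and at least 2-fold lower in HFD *Rag1-/-* liver. *Ccl17* had a Ct of 25.33 without IRI and 27.75 after IRI in HFD *Rag1-/-* liver (3.48-fold lower). It was thus detected earlier in *Rag1-/-* than in Rag1-Tbet DKO liver without IRI, and later after IRI. *Ccl24* moved from 26.55 to 29.66 in HFD *Rag1-/-* liver and was 5.62-fold lower. *Il12b* and *Lta*, both lower after IRI in HFD Rag1-Tbet DKO liver, were 9.36-fold and 7.71-fold higher on the ND. There *Il12b* moved from 31.62 to 29.96 and *Lta* from 32.55 to 31.17. In HFD *Rag1-/-* liver *Il12b* was lower too, by 3.10-fold (26.36 to 28.61), and *Lta* was 1.10-fold lower, within the threshold. The log2 fold of *Csf2* was 3.06 in HFD *Rag1-/-* liver and 3.17 in HFD Rag1-Tbet DKO liver, the nearest pair of values among the 6 genes higher in both.

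**Figure D4:**
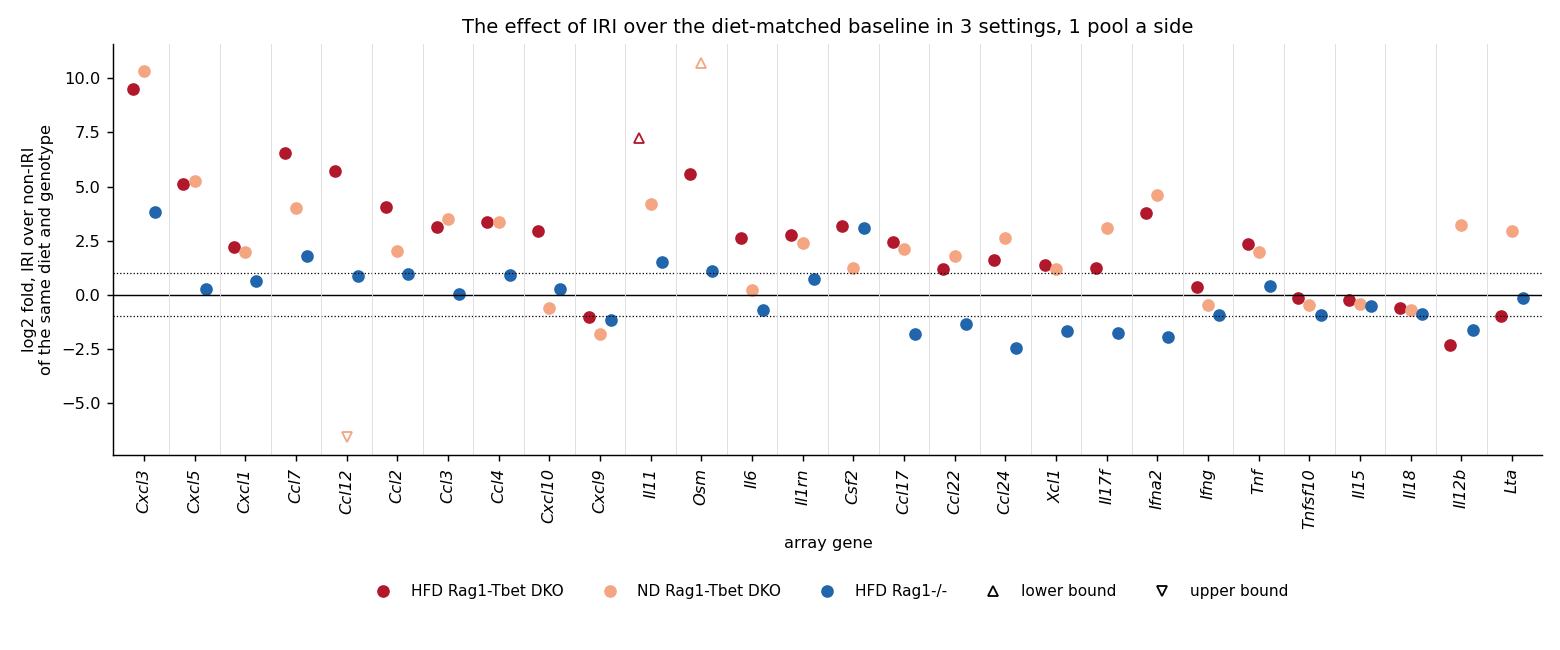
Log2 fold after IRI of 28 array genes over the non-IRI pool of the same diet and genotype, in HFD Rag1-Tbet DKO (red), ND Rag1-Tbet DKO (light orange) and HFD *Rag1-/-* liver (blue), with open triangles for bounds and dotted lines at 2-fold. *Cxcl3* and *Ccl7* were higher in all 3 settings, and *Ccl17*, *Ccl22*, *Ccl24*, *Xcl1*, *Il17f* and *Ifna2* were at least 2-fold higher in both Rag1-Tbet DKO comparisons and at least 2-fold lower in HFD *Rag1-/-* liver.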

How the data were processed

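Each of the 8 pools held 1.25 µg of RNA from at least 3 livers and was read once on a SYBR Green array over 40 PCR cycles. The deposited Ct values (other unit, cycles) give 84 array genes and 5 housekeeping genes per pool, with no Ct above 35. The authors also deposited normalized values, used here as a ratio of expression to reference genes. For the Rag1-Tbet DKO pools compared, those of 63 genes matched ΔCt against the geometric mean Ct of *Nodal*, *Il9*, *Csf1*, *Ccl22* and *Fasl* to within 0.0069 cycles, a set found from the values and used only as an alternative. A further deposited table holds the authors' fold changes and was not used. PCR efficiency and melting curves were not given in the sources used here.

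The log2 fold was computed from Ct in Python 3.11.15 with numpy 2.4.6, pandas 2.3.3 and matplotlib 3.10.9, against the averaged Ct of *Gapdh*, *Actb* and *Hsp90ab1*, the panel the methods give for *Rag1-/-* mice, over the non-IRI pool of the same diet. Genes were called at 2-fold. With 1 pool a condition no test was run, and the call is a threshold on size only. The calculation was tested on simulated Ct values. The precision is limited by the single well per gene, and most so at late Ct. Genes named in full were the 10 highest and lowest called genes, those called from a bound, up to 4 members per list and the genes the study names. The members and gene lists were chosen with earlier results of these data known. Of 89 RefSeq identifiers, 88 were found with the same symbol in RefSeq on GRCm38.p6, and 62 of the 84 array genes had a promoter in the table. Alternatives were other references, a limit of Ct 32, a 3-fold threshold, the ND baseline and the deposited ratios.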

Additional observations from a re-analysis of the deposited data

Results flagged for a closer look

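For 10 genes, the IRI pool lay at least 2-fold to 1 side of its non-IRI pool in HFD Rag1-Tbet DKO liver and at least 2-fold to the other side in a second setting. With 1 pool a side, the difference was not tested for any of them.

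Against HFD *Rag1-/-* liver, 6 genes were higher after IRI in the Rag1-Tbet DKO and lower in the other genotype. The log2 fold was 2.44 against -1.80 for *Ccl17* and 1.19 against -1.37 for *Ccl22*, both CCR4 ligands. It was 1.59 against -2.49 for the eotaxin gene *Ccl24* and 1.39 against -1.69 for *Xcl1*. It was 3.77 against -1.97 for *Ifna2* and 1.21 against -1.77 for *Il17f*. With *Nodal*, *Il9* and *Csf1* as references for the Rag1-Tbet DKO pools, *Ccl22* (0.39), *Ccl24* (0.79), *Xcl1* (0.59) and *Il17f* (0.41) were no longer 2-fold higher. Against the array median, *Ccl22* (-0.23), *Xcl1* (-0.03) and *Il17f* (-0.21) turned below 0.

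Against ND Rag1-Tbet DKO liver, 4 genes had opposite directions. The log2 fold of *Ccl12* was 5.74 against at most -6.57, and that of *Cd40lg* at least 3.31 against at most -21.99. Both rest on wells of the ND pools that stood apart, *Ccl12* at the limit after IRI and *Cd40lg* at a Ct of 11.44 without IRI. The log2 fold of *Il12b* was -2.34 against 3.23, and that of *Lta* -1.01 against 2.95. Each of these was read at a Ct above 29 in all 4 pools.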

How the results depend on the processing

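The main counts were 44 higher and 4 lower genes with a median log2 fold of 1.29. With *Nodal*, *Il9* and *Csf1* as references there were 12 lower genes and the median was 0.49. With the median Ct of the array there were 28 higher and 24 lower genes and the median was -0.13. With the deposited ratios there were 15 lower genes and the median was 0.30. With all 5 housekeeping genes, without *Actb* and at a 3-fold threshold there were 2 lower genes each. Plain Ct differences, added after seeing the data, gave a median of 1.02. Over the ND non-IRI pool there were 13 lower genes and the median was 0.34, and 30 of the 44 higher genes were among its 33.

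With the median Ct of the array, the log2 folds of 25 genes changed sign. The 7 called ones were *Ccl22* (-0.23), *Csf1* (-0.23), *Fasl* (-0.13), *Il17f* (-0.21), *Il23a* (-0.30), *Tnfsf13b* (-0.37) and *Xcl1* (-0.03). The medians of 7 lists turned, of which 1 had been past 2-fold, that of the ILC1 and NK cell products (-0.08). Over the ND baseline 15 genes changed sign. The 5 called ones were *Cd40lg* (-19.82), *Csf2* (-4.32), *Il4* (-0.18), *Il5* (-3.48) and *Lta* (1.68). The medians of 5 lists turned, of which the T cell cytokines and ligands (-4.32) and the cytokines mainly of T cells (-1.34) had been past 2-fold. The ND non-IRI pool holds the *Cd40lg* and *Csf2* wells that stood apart, and their part in this was not tested.

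No paired analysis was possible because each condition was 1 pool. Leaving out a replicate was not run for the same reason. A limit of Ct 32 gave 40 higher and 4 lower genes, without *Cd40lg*, *Il5*, *Il21* and *Mstn*.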
